A study of Mus musculus with 10 samples.

Results

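Immediate early and AP-1 genes were followed across the cell classes of mouse lymph nodes. They were a list of 33 genes, out of 32285 genes in each count table. The genes were chosen by name and not by their values, but with earlier results of these data known. All 33 were present in all 5 gene libraries, which were droplet single-cell RNA sequencing libraries (10x Genomics) of sorted lymph node cells. The mice were wild-type BALB/C females aged 8 weeks. In the 4T1 and 67NR groups, cells of mouse breast cancer lines (metastatic 4T1, non-metastatic 67NR) had grown in the fourth mammary pad for 18 days, to tumours of 500 mm3. The LPS group had received lipopolysaccharide, a bacterial cell wall component, under the skin 72 hours before, and the naive group was untreated. Axillary nodes of these groups were labelled with hashtag antibodies, 1 per condition, and pooled into 3 libraries. One, the stromal library, held 4T1, 67NR, LPS and naive cells. The others held 4T1, 67NR and naive cells: a mixed library of myeloid and stromal cells, and a library of T cells. The other libraries were atlases of naive axillary and naive mediastinal nodes. At least 3 mice were used per condition according to the design text, but the counts carry no label for single mice. A condition in a library was therefore 1 sum of cells, and nothing in the labels says that libraries came from separate mice. With the library as a block, p-values measure only how far a difference between conditions varied between libraries. Where classes were averaged, the libraries also held different cell classes.

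Immediate early genes are transcribed within minutes of a stimulus, without new protein synthesis, because the factors that switch them on (SRF with its partners, and CREB) are already present and are activated by kinases such as ERK and p38. Many encode transcription factors. FOS and JUN proteins pair to form AP-1, and ATF3 and MAF proteins share its dimerising domain. Others encode inhibitors that shut the response down, among them the DUSP phosphatases and ZFP36 proteins, which destabilise AU-rich mRNAs. Enzymatic dissociation of tissue is known to induce these genes, which makes their level in single-cell data sensitive to handling. All conditions of a pooled library were sequenced as 1 library, but each condition's nodes were necessarily collected and labelled before pooling. A difference in handling between conditions and a response to the tumour or to LPS therefore cannot be told apart from the labels. What can be measured is whether a difference was shared by all cell classes of a pool or was limited to some, and the values are arranged for that.

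The stromal, mixed and T cell libraries gave 2350, 5412 and 7210 usable cells, and the axillary and mediastinal atlases 10626 and 25148. Median depths were 12899, 10803, 10930, 6433 and 2272 UMIs (unique transcript counts) per cell in the same order. Naive cells were the shallowest of their pool in all 3 hashtagged libraries (medians of 9684, 8834 and 9861 UMIs, against 9598 to 17445 in the other conditions). Median mitochondrial shares lay between 1.07% and 2.46% in every condition of the hashtagged libraries, and were 2.08% and 2.94% in the axillary and mediastinal atlases. Barcodes shared by 2 libraries made up 0.17% to 0.8% of the smaller one. Cells were clustered without the 33 genes, and clusters were named from marker genes, so each class is a type by likeness to its markers and the short name stands for that. No class had any of its own markers at 0, and in the stromal library fibroblast markers summed to between 15740 and 18320 CPM (UMIs of a gene scaled to a common total of UMIs per sum) in the fibroblasts. In the mediastinal atlas most clusters could not be named, and only its B cells were used by class. The comparison of conditions had 9 units with at least 30 cells in 4T1, 67NR and naive: blood endothelial cells and fibroblasts of the stromal library, fibroblasts, migratory dendritic cells, monocytes and neutrophils of the mixed library, and CD4, CD8 and regulatory T cells of the T cell library. Markers of other cells moved with the condition in some units. The 9 fibroblast markers in the blood endothelial cells summed to 268.0 CPM in naive, 39.0 in 4T1, 43.5 in 67NR and 359.7 in LPS, and their part in the endothelial values was not tested. In T cells these markers were near 0 (at most 4.03 CPM, with 6 to 8 of 9 listed at 0), and in neutrophils they stood at 115.1, 112 and 87.6 CPM in naive, 4T1 and 67NR. In monocytes the neutrophil markers summed to 1692, 2671 and 4324 CPM in naive, 4T1 and 67NR, and in the fibroblasts of the same library to 2020, 939 and 3212 CPM, and their part in the values of these classes was not tested.

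The promoters of 6 members are shown because these genes carry the results: Fos, Fosb, Junb and Atf3 were below naive in most cell classes, Zfp36l1 differed most in a single class, and Nr4a1 was lowest relative to naive in monocytes and neutrophils. The sequences are from RefSeq on GRCm38.p6 (the assembly that mm10 names), from 160 to 11 bases before the gene's start, 5′ to 3′ on the gene's own strand. Capitals mark the searched letters on either strand: the cAMP response element core TGACG, at which CREB and ATF proteins bind, the EGR site GCGGGGGCG, the AP-1 site TGANTCA, and the TATA box TATAAA on the gene's strand only. A match on the other strand shows as the reverse complement.
Fos: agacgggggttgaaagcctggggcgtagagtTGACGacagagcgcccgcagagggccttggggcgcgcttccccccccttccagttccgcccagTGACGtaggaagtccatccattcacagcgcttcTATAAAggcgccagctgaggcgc
Fosb: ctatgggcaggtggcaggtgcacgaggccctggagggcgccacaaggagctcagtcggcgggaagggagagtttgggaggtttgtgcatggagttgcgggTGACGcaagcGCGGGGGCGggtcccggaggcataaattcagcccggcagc
Junb: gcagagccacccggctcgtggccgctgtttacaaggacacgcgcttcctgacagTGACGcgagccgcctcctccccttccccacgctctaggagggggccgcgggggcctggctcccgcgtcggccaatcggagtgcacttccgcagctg
Atf3: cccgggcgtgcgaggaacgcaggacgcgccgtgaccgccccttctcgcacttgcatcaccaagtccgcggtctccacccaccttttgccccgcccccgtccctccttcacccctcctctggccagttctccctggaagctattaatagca
Zfp36l1: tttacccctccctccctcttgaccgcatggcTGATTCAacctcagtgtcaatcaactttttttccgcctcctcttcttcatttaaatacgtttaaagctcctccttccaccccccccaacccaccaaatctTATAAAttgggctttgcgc
Nr4a1: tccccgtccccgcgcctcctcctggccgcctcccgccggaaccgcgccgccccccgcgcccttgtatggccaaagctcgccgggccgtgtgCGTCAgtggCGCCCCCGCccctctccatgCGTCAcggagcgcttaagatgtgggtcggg
They lie at chr12:85473730-85473879 (Fos, plus strand), chr7:19310056-19310205 (Fosb, minus strand), chr8:84978759-84978908 (Junb, minus strand), chr1:191183344-191183493 (Atf3, minus strand), chr12:80113024-80113173 (Zfp36l1, minus strand) and chr15:101266686-101266835 (Nr4a1, plus strand). Fos held 2 TGACG cores, at -129 and -66 from its start, ahead of a TATA box, and Fosb held a TGACG core followed by an EGR site. Nr4a1 held TGACG on the other strand on both sides of an EGR site. The only core of Atf3 was outside the printed stretch, from -7 to -3 on the other strand, so its line has no capitals. Zfp36l1 held an AP-1 site and no TGACG. Over the 250 bases before the start, 16 of the 27 members with an entry (59.3%) held TGACG, against 19.8% of 27025 genes in the table. The EGR site was in 8 members (29.6%, against 2.93%), the full cAMP response element TGACGTCA, which includes the core, in 3 (11.1%, against 1.77%), and the SRF site (CArG box) in 3 (11.1%, against 1.62%). The AP-1 site was in 2 members (7.41%, against 7.82%) and the TATA box in 3 (11.1%, against 8.94%). These are matches of letters, and a missing match says only that the letters are not in this window.

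In naive nodes the list had no common order of cell classes, and each gene was compared with itself over 21 sums, each of 1 class in 1 library. Fibroblasts had the highest level for most of the AP-1 and EGR genes. Fos stood at 5944 CPM in stromal fibroblasts and 2746 CPM in the fibroblasts of the mixed library, and was lowest in regulatory T cells (56.9 CPM). Jun, its main partner, ran from 3672 and 2211 CPM in the same fibroblasts down to 11.7 CPM in CD4 T cells. Egr1, a zinc-finger factor, ran from 3856 CPM to 9.36 CPM in regulatory T cells, and Atf3 from 1962 CPM to 4.76 CPM in axillary B cells. A fibroblast sum was also highest for Fosb, Junb, Jund, Egr2, Klf4, Ier2, Myc, Maff, Nr4a1, Rhob, Socs3, Zfp36 and Zfp36l1, but not always both of them. For Jund and Maff it was only that of the mixed library, by a small gap. Jund stood at 1692 CPM there, 1659 in axillary gamma-delta T cells and 1406 in stromal fibroblasts. Maff stood at 159.1 CPM there, 151.9 in macrophages and 147.1 in stromal fibroblasts. For Ier2, Nr4a1 and Egr2 only the stromal fibroblasts were highest. In Ier2 the gap to the next class was small (718 CPM against 685 CPM in blood endothelial cells), as it was in Nr4a1 (384 CPM against 361.5 CPM in axillary B cells). Egr2 stood at 87.6 CPM against 77.9 CPM in macrophages. The mixed-library fibroblasts had 297, 291 and 58.4 CPM for Ier2, Nr4a1 and Egr2. Neutrophils were highest for 8 members, among them Dusp1 (2614 CPM), a phosphatase that inactivates p38 and JNK, Btg2 (2480 CPM) and Btg1 (3517 CPM), whose proteins bind the deadenylase that shortens mRNA tails, and Fosl1 (107 CPM) and Fosl2 (763 CPM), the FOS-related AP-1 subunits. Migratory dendritic cells were highest for the nuclear receptor Nr4a3 (1403 CPM), and in the axillary atlas for Klf6 (871 CPM) and Ier5 (686 CPM). NK cells were highest for Nr4a2 (655.9 and 528.9 CPM in the libraries that held them) and Dusp5 (625.5 and 541.4 CPM). Dusp2 was highest in axillary B cells (396 CPM), Klf10 in blood endothelial cells (100.5 CPM) and Mafk in macrophages (74.0 CPM). These levels have no replicate within a library.

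**Figure D1:**
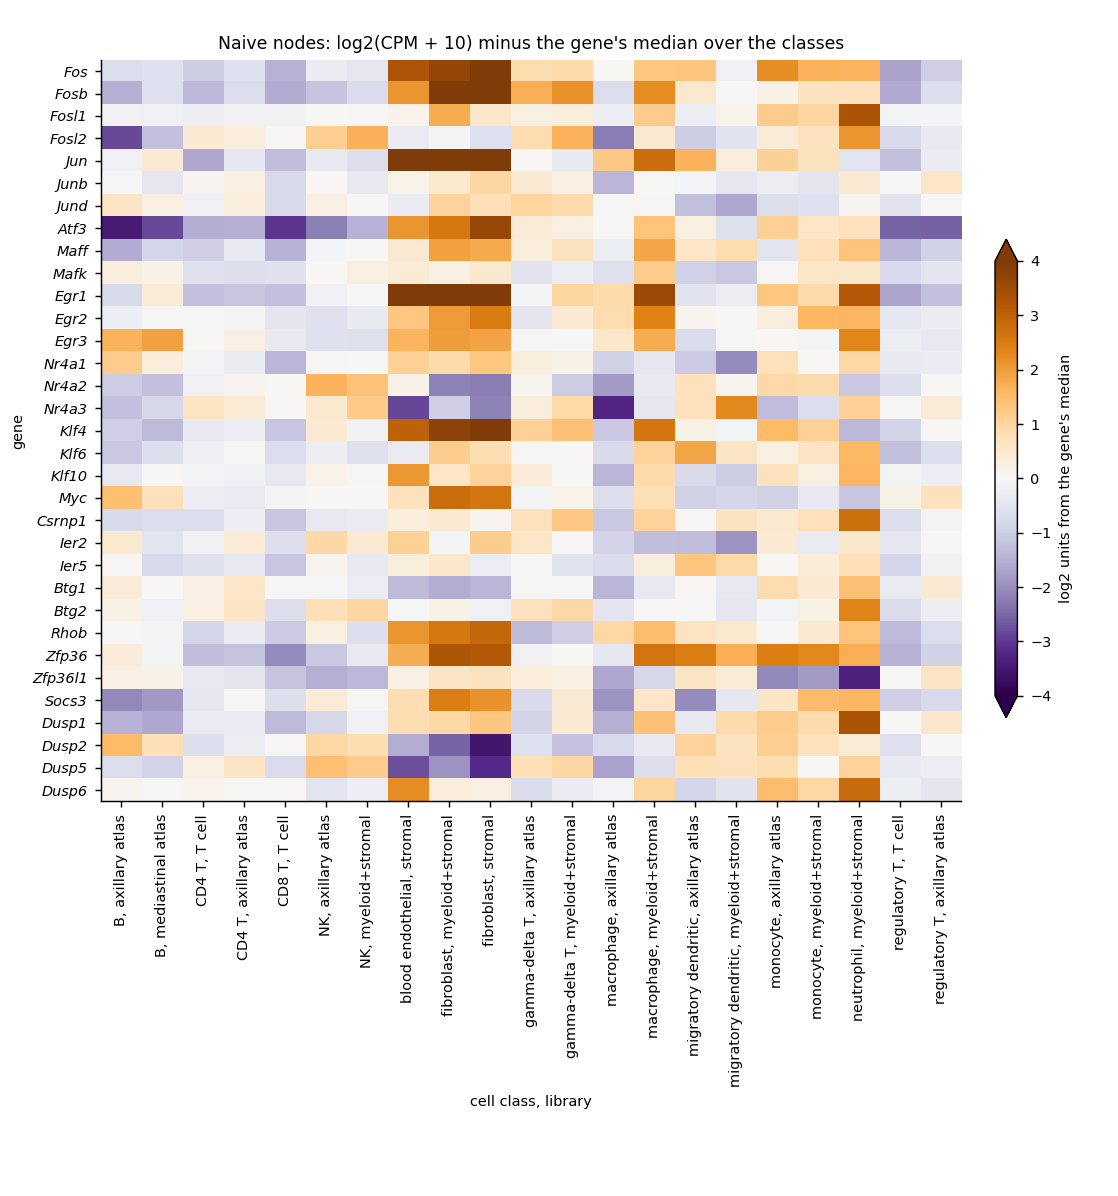
Levels in naive nodes: rows are the 33 genes and columns the cell classes by library, coloured by log2(CPM + 10) minus the gene's own median over the classes. The fibroblast columns are high for Fos (5944 and 2746 CPM), Jun and Egr1, the neutrophil column for Btg2 and Dusp1, and the migratory dendritic columns for Nr4a3.

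To see what was shared by the classes of a pool, log2(CPM + 10) was averaged over the classes of each library with equal weight, and the 3 libraries were compared by condition with limma and the library as a block. The 4T1 and 67NR comparisons share their naive cells and are not independent of each other. Atf3, a stress-induced member of the ATF and CREB family, was the only gene called of 9198 tested, in both. Its class-averaged level was 10.20 in naive, 9.49 in 4T1 and 9.54 in 67NR in the stromal library. In the mixed library the same values were 8.17, 7.41 and 7.43, and in the T cell library 4.95, 4.48 and 4.39. Naive was highest in all 3 libraries, and the tumour groups lay together. Atf3 fell by 0.64 on the log2 scale with 4T1 (SE 0.068, limma with Benjamini-Hochberg adjustment, adjusted p = 0.0425) and by 0.65 with 67NR (SE 0.068, adjusted p = 0.0384). That 1 member called lower compares with 0.0109% of genes called lower in each of these comparisons. The call rests on few degrees of freedom: the adjusted p was 0.251 to 0.513 (4T1) and 0.235 to 0.834 (67NR) when any 1 library was left out, and it ran from 0.00879 to 1.0 and from 0.00655 to 1.0 over all settings run. The differences themselves stayed between -0.73 and -0.59 with 4T1 and between -0.70 and -0.61 with 67NR when a library was left out. Without the fibroblasts they were -0.75 and -0.72 (adjusted p = 0.38 and 0.505), so the difference was not smaller there although the call was lost. Atf3 was below naive in every one of these settings.

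The other 32 members did not pass the test, although most values lay below naive. With 4T1, 30 of 33 members had a difference below 0, with a median of -0.24, while 50.8% of all genes were below 0 with a median of -0.00. With 67NR it was 27 of 33 with a median of -0.18, against 57.3% of all genes and a median of -0.02. At an unadjusted p under 0.05, 20 members were lower with 4T1 and 11 with 67NR, against 6.12% and 4.89% of all genes, and 0 and 1 were higher (5.2% and 2.08% of genes). The 1 higher was Fosl1 with 67NR (0.31). When all clusters were averaged, named or not, in place of the named classes, the 4T1 median was -0.05 and the Atf3 difference -0.28 (adjusted p = 0.662). The 67NR median was -0.07 there. Then 23 of 33 members were below 0 with 4T1 and 20 of 33 with 67NR, against 54.0% and 58.0% of genes. At an unadjusted p under 0.05 by limma, 7 and 5 were lower (4.37% and 3.61% of genes) and 1 and 3 higher (2.81% and 1.77%). With cells thinned to 1000 UMIs, 9 and 11 were lower (3.56% and 3.01%). For 4T1 over 67NR, 24 of 33 members were below 0 with a median of -0.07, against 43.2% of genes and a median of 0.01, and 0 genes were called by limma, with 3 members lower and 0 higher at an unadjusted p under 0.05 (1.21% and 2.52% of genes).

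Fos, the AP-1 subunit that names the family, had class-averaged levels of 11.78 in naive, 11.35 in 4T1 and 11.29 in 67NR in the stromal library. The values were 9.46, 8.82 and 9.01 in the mixed library and 6.36, 6.15 and 6.17 in the T cell library. Naive was again highest in each library, and the differences were -0.43 (SE 0.08, limma adjusted p = 0.324) and -0.38 (SE 0.08, adjusted p = 0.649). Junb had the same order in all 3 libraries (-0.23 and -0.23, adjusted p = 0.355 and 0.693). So did Ier2, a small nuclear protein, and Btg1, at -0.31 and -0.23 and at -0.37 and -0.18. Jun did not: with 4T1 it was -0.38 in the stromal library, 0.19 in the mixed library and 0.08 in the T cell library, for a mean of -0.04 (adjusted p = 0.929). Egr1 was -0.38 and -0.53 in the first 2 libraries and -0.01 in T cells with 4T1, and 0.28 in T cells with 67NR. Dusp1 and Nr4a1, an orphan nuclear receptor induced by antigen and stress signals, were lowest in the mixed library, at -0.62 and -0.54 with 4T1 and -0.51 and -0.62 with 67NR, against -0.10 and -0.21, and 0.13 and 0.24, in the stromal library.

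**Figure D2:**
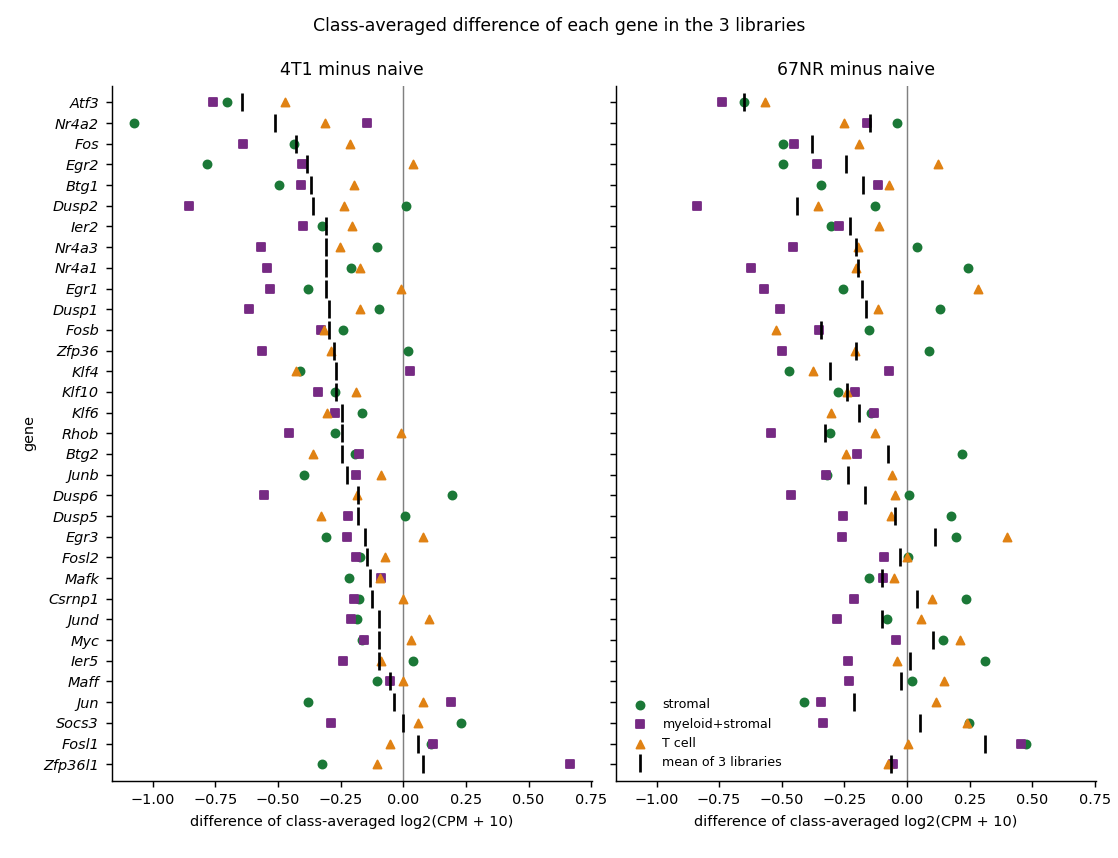
Class-averaged difference of log2(CPM + 10) from naive for each gene: each point is 1 library and each bar the mean of the 3 libraries, with 4T1 and 67NR in separate panels. The points of Atf3 lie together, between -0.76 and -0.47 with 4T1 and between -0.74 and -0.57 with 67NR, while those of Jun with 4T1 lie on both sides of 0.

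Within single classes each comparison rests on 1 sum per condition, so the intervals given are exact 95% counting intervals, which leave out the spread between mice, and no test was made. Atf3 was lower than naive in 8 of 9 classes with 4T1 and in 8 of 9 with 67NR. In monocytes it stood at 234 CPM in naive, 67.9 in 4T1 and 85.2 in 67NR, which are log2 ratios of -1.78 (-1.94 to -1.63) and -1.46 (-1.65 to -1.26). In neutrophils it stood at 256, 88.3 and 76.5 CPM, with log2 ratios of -1.53 and -1.74. In stromal fibroblasts, where the level was far higher, it stood at 1962, 1346 and 1254 CPM, with ratios of -0.54 and -0.65, and in blood endothelial cells at 687, 372 and 431 CPM (-0.89 and -0.67). T cells, in which fibroblast markers were near 0, had the same order at low levels: 45.1, 24.2 and 19.8 CPM in CD4 T cells (-0.90 and -1.19), 9.47, 4.96 and 4.66 in CD8 T cells (-0.93 and -1.02), and 17.8, 11.8 and 10.96 in regulatory T cells (-0.59 and -0.70). The exception was the migratory dendritic cells as a whole class, at 99.2, 132 and 113 CPM, with a ratio of 0.41 (0.21 to 0.61) with 4T1 and 0.19 (-0.04 to 0.41) with 67NR. Within their cluster of 100 naive, 72 4T1 and 63 67NR cells Atf3 stood at 141.4, 157.7 and 103.9 CPM. Their cluster of 219 naive, 17 4T1 and 14 67NR cells had 81.9, 57.5 and 100.3 CPM. A small cluster of 31 naive, 8 4T1 and 5 67NR cells had 115.2, 131.3 and 310.8 CPM (68, 18 and 28 UMIs). The higher level in the tumour groups was thus kept in some clusters and not in others.

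**Figure D3:**
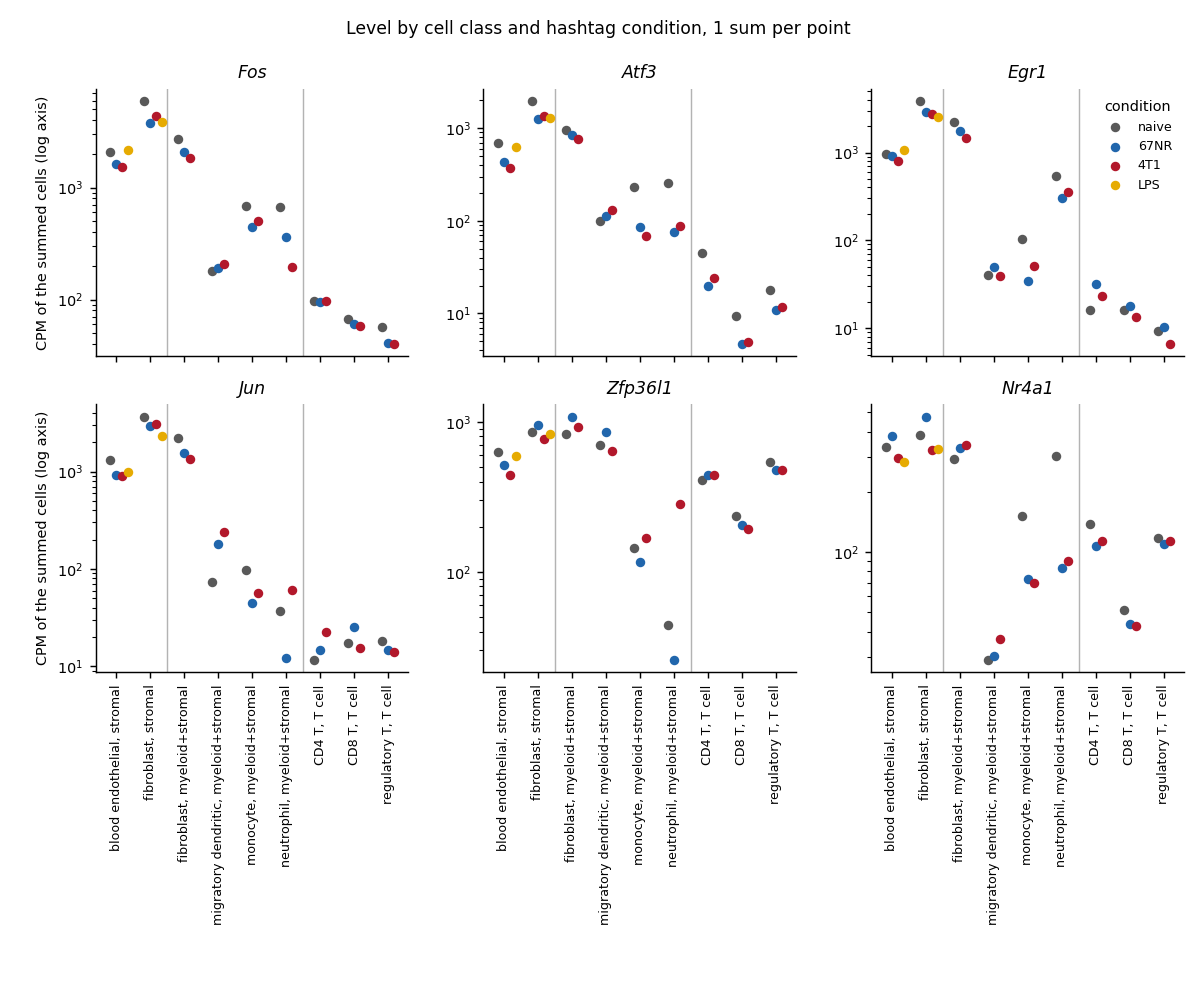
Level of 6 genes in CPM (log axis) by cell class and hashtag condition, each point being 1 sum of cells with no replicate. Atf3 is highest in naive in every class except migratory dendritic cells, whereas Jun in migratory dendritic cells and Zfp36l1 in neutrophils are highest in 4T1.

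Among the AP-1 subunits, Fos was lower in 8 of 9 classes with each tumour line. Neutrophils had the lowest ratio with 4T1, at 669 CPM in naive, 196 in 4T1 and 361 in 67NR (log2 ratios of -1.77 and -0.89). In fibroblasts Fos went from 5944 CPM in naive to 4371 and 3812 in the stromal library, and from 2746 to 1844 and 2065 in the other, so both libraries had the same order of naive against tumour but not of 4T1 against 67NR. CD4 T cells had 97.4, 96.2 and 94.4 CPM, with intervals that include 0. Fosb, a close relative of Fos, was lower in 8 of 9 classes with either line, and was lowest relative to naive with 67NR in neutrophils (162 CPM in naive, 70.4 in 67NR) and regulatory T cells (24.5 and 11.4 CPM). Junb was lower in 8 of 9 classes with either line but by small amounts in T cells, for instance 1523, 1501 and 1489 CPM in CD4 T cells. Its lowest ratio was that of neutrophils with 67NR, at 1990 CPM in naive against 1098 (-0.86). Jund, which is made in most cells without a stimulus, was lower in 5 of 9 classes with either line. Fosl2 was lower in 8 and 5 of 9 classes. Fosl1 was measurable (at least 50 UMIs in the higher sum) in 3 classes with 4T1 and 4 with 67NR, and was lower in 0 of them. In neutrophils it stood at 107, 120 and 193 CPM in naive, 4T1 and 67NR, and in the fibroblasts of the mixed library at 30.7, 42.7 and 60.9 CPM.

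Jun departed from this order in several classes. In migratory dendritic cells it stood at 73.4 CPM in naive, 242 in 4T1 and 180 in 67NR, with log2 ratios of 1.72 (1.55 to 1.90) and 1.29 (1.09 to 1.49), while in stromal fibroblasts it stood at 3672, 3106 and 2924 CPM (-0.24 and -0.33) and in monocytes at 98.0, 56.1 and 45.0 CPM (-0.80 and -1.12). In neutrophils the tumour lines lay on opposite sides of naive, at 37.3 CPM in naive, 61.4 in 4T1 and 12.2 in 67NR. Of the 130 Jun UMIs in 4T1 neutrophils, 123 lay in a cluster of 214 4T1, 36 67NR and 10 naive cells. Within it Jun stood at 84.95 CPM in 4T1, 43.5 in 67NR and 23.8 in naive (2 UMIs). CD4 T cells had 11.7, 22.7 and 14.8 CPM. Migratory dendritic cells were made of 3 clusters whose shares differed by condition. The cluster that held 72 of 97 cells in 4T1, 63 of 82 in 67NR and 100 of 350 in naive had Jun at 305, 204 and 76.8 CPM in these conditions. The cluster of 219 naive, 17 4T1 and 14 67NR cells had 33.3, 1.92 and 44.9 CPM. A small cluster of 31 naive, 8 4T1 and 5 67NR cells had 400, 467 and 366 CPM. The differences with 4T1 and 67NR were thus present within the cluster that held most tumour-group cells, but were not kept in every cluster. Few cells carried most of the signal: the 5% of cells with the most Jun held 64.7%, 68.0% and 58.2% of its UMIs in 4T1, 67NR and naive.

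**Figure D4:**
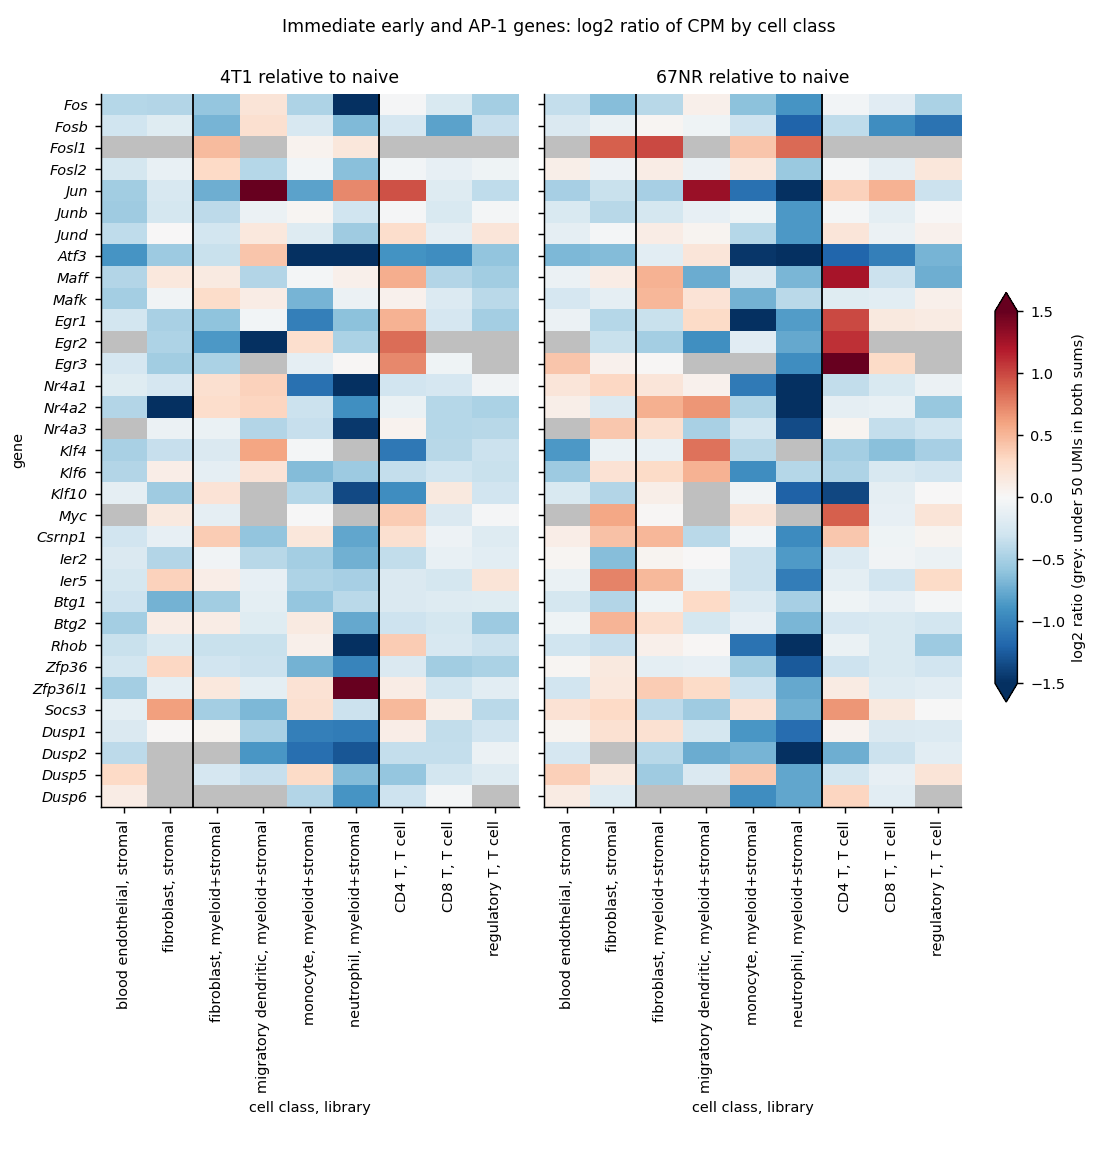
Log2 ratio of CPM relative to naive for the 33 genes (rows) in 9 cell classes (columns, grouped by library), with 4T1 and 67NR in separate panels and grey where both sums held under 50 UMIs. The rows of Atf3, Fos and Junb are below 0 in 8 of 9 classes in both panels, and the neutrophil column with 67NR is below 0 for 30 of 31 genes.

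The EGR, NR4A, KLF and MYC transcription factors were less uniform. Egr1 went from 3856 CPM in naive to 2752 in 4T1 and 2868 in 67NR in stromal fibroblasts, and from 2241 to 1478 and 1774 in the other fibroblasts. In monocytes it went from 105 CPM to 51.5 and 34.6 (log2 ratios of -1.03 and -1.60). In CD4 T cells it was higher in the tumour groups, at 16, 23.0 and 31.9 CPM (0.53 and 0.99). A CD4 T cell cluster of 28 naive, 123 4T1 and 88 67NR cells had Egr1 at 0 CPM in naive and at 62.3 and 87.9 CPM in the tumour groups. The other 3 large CD4 clusters had 20.8, 15.9 and 15.8 CPM in naive, 9.45, 15.8 and 10.97 in 4T1 and 24.6, 11.3 and 19.9 in 67NR, so with 4T1 none of these 3 was higher than naive. Egr3, a related factor induced through the antigen receptor, was also higher in CD4 T cells as a whole class, at 6.97, 11.5 and 25.7 CPM. Its log2 ratio was 1.88 (1.32 to 2.47) for 67NR. Maff, a small MAF protein that lacks an activation domain, was higher there too, at 12.7, 18.6 and 29.9 CPM (0.55 and 1.23). The CD4 T cell clusters differed in share by condition, and their part in the whole-class values of Egr3 and Maff was not tested. Egr2 had no UMI in the migratory dendritic cells of 4T1 and 6.93 CPM in naive, which is a log2 ratio of -2.33 or lower against a floor of 3 UMIs. Nr4a1 was lowest relative to naive in monocytes (152, 70.0 and 73.0 CPM) and neutrophils (303, 90.2 and 83.4 CPM, log2 ratios of -1.75 and -1.86), and in stromal fibroblasts it stood at 384, 322 and 476 CPM. Nr4a3 followed in neutrophils, at 597, 218 and 236 CPM. Nr4a2 had 1 large departure: 34.0 CPM in naive, 3.28 in 4T1, 29.3 in 67NR and 20.3 in LPS in stromal fibroblasts. Its 4T1 ratio of -3.38 (-4.74 to -2.27) rests on 7 UMIs against 80, and in the fibroblasts of the other library Nr4a2 stood at 35.7, 43.0 and 51.8 CPM, so the second library did not have it. Klf4, which restrains proliferation, was lower in 7 of 8 classes with either line, including CD4 T cells (42.5, 20.2 and 29.9 CPM), and higher in migratory dendritic cells (52.2, 78.6 and 92.0 CPM). Klf6 was lower in 7 and 6 of 9 classes, and Klf10 was lower in CD4 T cells at 14.97, 7.87 and 5.81 CPM. Myc was lower in 4 of 6 classes with 4T1 and in 1 of 6 with 67NR, and in stromal fibroblasts it stood at 155, 171 and 231 CPM. Mafk stayed between 26.6 and 46.3 CPM in fibroblasts, endothelial cells, monocytes and neutrophils of all 3 of these conditions.

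Genes of mRNA decay and growth arrest came next. Btg1 was lower in all 9 classes with 4T1 and in 8 with 67NR, with 485, 296 and 359 CPM in stromal fibroblasts and 3517, 2662 and 2497 CPM in neutrophils. Btg2 stood at 2480, 1460 and 1545 CPM in neutrophils but at 422, 457 and 601 CPM in stromal fibroblasts. Zfp36 was lower in 8 and 7 of 9 classes, with 651, 399 and 453 CPM in monocytes, and the stromal fibroblasts were an exception at 1186, 1471 and 1314 CPM. Zfp36l1, its relative, had the largest departure in the mixed library with 4T1: neutrophils stood at 44.3 CPM in naive, 285 in 4T1 and 26.0 in 67NR, with log2 ratios of 2.69 (2.29 to 3.1) and -0.77 (-1.24 to -0.29). The 4T1 neutrophils were a different subset, since 214 of 257 belonged to a cluster led by Saa3, Stfa2 and Ifitm1 that held 10 of 259 naive and 36 of 614 67NR cells. Within this cluster Zfp36l1 stood at 366 CPM in 4T1, 261.4 in the 10 naive cells (22 UMIs) and 119.6 in 67NR, and the main naive and 67NR clusters had 32.5 and 19.0 CPM. Ier2 was lower in all 9 classes with 4T1 and in 6 with 67NR, and Ier5, a partner of the heat shock factor HSF1, in 6 and 6. In stromal fibroblasts Ier5 was higher, at 223, 283 and 373 CPM (0.34 and 0.74). Csrnp1, a nuclear protein induced by AXIN1, stood at 427, 248 and 223 CPM in neutrophils. Rhob, a small GTPase of endosomes, differed between the tumour lines in monocytes, at 49.4 CPM in naive, 52.2 in 4T1 and 22.9 in 67NR.

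Among the feedback inhibitors the pattern differed by gene. Dusp1 stood at 2614 CPM in naive, 1267 in 4T1 and 1182 in 67NR neutrophils (log2 ratios of -1.04 and -1.15) and at 491, 242 and 269 CPM in monocytes (-1.02 and -0.87). In stromal fibroblasts it was 645, 651 and 755 CPM, in the other fibroblasts 497, 512 and 580 CPM, and in CD4 T cells 202, 216 and 209 CPM. Dusp2, an ERK and p38 phosphatase of blood cells, was lower in all 7 classes where it was measured with 4T1 and in all 8 with 67NR, with 170, 69.9 and 42.6 CPM in neutrophils and 218, 99.2 and 135 CPM in monocytes. Dusp5 and Dusp6, which act on ERK, were lower in neutrophils (484, 309 and 283 CPM for Dusp5, and 121, 65.2 and 70.1 CPM for Dusp6), while Dusp6 in endothelial cells stood at 75.9, 82.0 and 83.02 CPM. Socs3, which blocks cytokine signalling through STAT3, was lower in 5 and 4 of 9 classes. It stood at 507, 773 and 622 CPM in stromal fibroblasts and at 635, 448 and 484 CPM in those of the other library, so the 2 fibroblast sums went in opposite directions.

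Counted over members, the share below naive depended on the class. In neutrophils 26 of 31 measured members were below naive with 4T1 (median log2 ratio -0.65) and 30 of 31 with 67NR (-0.86), and 18 and 26 were at least 1.5-fold lower, against 15.9% and 22.6% of all genes. All genes together had a median of -0.21 in neutrophils with 67NR, and with TMM scaling, which moved all ratios there by 0.39, the member median was -0.47. The clusters within the class also differed: the cluster led by Retnlg held 229 of 614 67NR and 10 of 259 naive cells, the one led by Rsad2 101 and 150, and the one led by Rdh12 180 and 75. Only the last 2 had enough cells in both groups, and with 67NR the member median was -0.32 in the Rsad2 cluster (23 of 25 members below naive, all genes -0.08) and -0.07 in the Rdh12 cluster (16 of 25, all genes -0.06). Within clusters the difference was thus smaller than in the whole class, or near that of all genes. With 4T1 no neutrophil cluster had enough cells in both groups. A cluster of the same library shared the leading genes 4732465J04Rik and Rps6ka2 with the Rdh12 cluster but stayed unnamed and outside the class. It held 460 naive and 222 67NR cells, and its member median with 67NR was -0.11 (22 of 31 below naive, all genes -0.08). The neutrophil values of the whole class leave these cells out. In monocytes 24 of 33 and 27 of 32 were below naive (-0.33 and -0.33), with 10 and 11 at least 1.5-fold lower (8.09% and 5.34% of genes). Endothelial cells had 27 of 29 below naive with 4T1 (-0.31) and 18 of 29 with 67NR (-0.10), but 1 and 2 past that fold (4.97% and 3.81%). CD8 T cells had 29 of 31 and 27 of 31 below naive (-0.25 and -0.16), with 2 and 3 past that fold (1.14% and 1.34%), and regulatory T cells 27 of 29 and 19 of 29 (-0.32 and -0.16), with 1 and 3 (1.72% and 2.47%). Stromal fibroblasts had 20 of 29 and 17 of 32 (-0.18 and -0.06), with 2 and 3 (7.42% and 4.71%). The other fibroblasts had 19 of 31 and 12 of 32 (-0.14 and 0.06), with 4 and 0 (10.0% and 7.01%). CD4 T cells had 18 and 19 of 32 (-0.03 and -0.05), with 3 and 3 (3.01% and 3.42%), and migratory dendritic cells 18 and 14 of 28 (-0.14 and -0.03), with 4 and 3 (11.7% and 11.1%). Members at least 1.5-fold higher were fewer: 2 with 4T1 and 1 with 67NR in neutrophils (16.4% and 7.15% of genes), 1 and 2 in stromal fibroblasts (6.65% and 9.09%), 0 and 1 in the other fibroblasts (6.4% and 5.96%), 2 and 3 in migratory dendritic cells (9.1% and 8.89%) and 3 and 6 in CD4 T cells (4.65% and 3.7%). They numbered 0 and 0 in endothelial cells (3.62% and 5.22%), monocytes (10.2% and 4.54%), CD8 T cells (1.58% and 2.17%) and regulatory T cells (1.61% and 2.07%). The median over all genes lay between -0.04 and 0.05 in the classes other than neutrophils. Under a stricter hashtag rule, which left 69 of 189 naive stromal fibroblasts, their member medians became 0.19 and 0.26.

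How far the members moved together across the classes of a pool differed by library. In the T cell library 15 of 29 members were below naive in all 3 classes with 4T1 and 13 of 29 with 67NR, against 17.4% and 16.1% of genes. In the stromal library 18 of 26 and 12 of 28 were below naive in both classes, against 28.7% and 29.2%. In the mixed library 4 of 26 with 4T1 (5 classes, macrophages included) and 4 of 27 with 67NR were below naive in every class, against 7.6% and 10.6%. Over all 9 classes Ier2 and Btg1 were the 2 of 23 members below naive throughout with 4T1 (2.12% of genes), and 0 of 24 were with 67NR (1.05%). Within single Leiden clusters, which hold the cell mixture more nearly constant, the member median was below 0 in 14 of 17 clusters of the T cell library with 4T1 (median over clusters -0.20) and 12 of 15 with 67NR (-0.10). The median of all genes was below 0 in 10 and 8 of these. The lowest of the 17 (-0.98, all genes -0.19) was led by Ebf1, Igkc and others such as Cd79a, and was not named a T cell class. In the mixed library the member median was below 0 in 6 of 9 and 9 of 12 clusters (-0.17 and -0.11), and that of all genes in 2 and 4. In the stromal library the member median was below 0 in 2 of 2 clusters with 4T1, but close to 0 (median over clusters -0.05). The endothelial cluster had -0.07, with 13 of 24 members below 0, and the fibroblast cluster -0.03, with 13 of 25, against the class medians of -0.31 and -0.18. With 67NR 1 of 5 stromal clusters was below 0 (median over clusters 0.06). The stromal differences of whole classes with 4T1 were thus mostly not seen within the 2 clusters that could be compared.

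LPS cells were present in the stromal library only, so the comparison covers blood endothelial cells and fibroblasts, 1 sum each. In LPS fibroblasts (398 cells) 27 of 31 members were below naive, with a median of -0.30, and 10 were at least 1.5-fold lower and 1 higher, against 6.12% and 6.18% of genes. Egr1 stood at 2558 CPM against 3856 in naive, Fos at 3887 against 5944, Jun at 2330 against 3672 and Junb at 1980 against 2924, with log2 ratios from -0.66 to -0.56. Ier2 had the largest departure, at 428 CPM against 718 (-0.75, interval -0.84 to -0.66) in fibroblasts and 730 against 685 (0.09, interval -0.04 to 0.22) in endothelial cells. Fosl1 went the other way in fibroblasts, at 19.1 CPM against 7.23. Endothelial cells (128 cells) differed less as a whole class: 20 of 28 members were below naive, with a median of -0.15, and 0 were at least 1.5-fold lower and 0 higher (5.42% and 4.68% of genes). Within the endothelial cluster that could be compared (69 LPS and 76 naive cells), 23 of 24 members were below naive, with a median of -0.36 (all genes 0.02). There 7 were at least 1.5-fold lower, against 9.41% of genes. Fibroblast clusters had medians from -0.28 to -0.18, so endothelial cells did not differ less within clusters. Over the whole endothelial class Fos stood at 2170 CPM against 2076, Egr1 at 1075 against 958 and Atf3 at 621 against 687. The members below naive in both classes numbered 17 of 26, against 29.1% of genes. Under the stricter hashtag rule the fibroblast median was 0.04.

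Fibroblasts were the only class present in 2 hashtagged libraries, so their sums were tested with edgeR's quasi-likelihood test and the library as a block. Of 12808 genes, 70 rose and 37 fell with 4T1, 107 rose and 19 fell with 67NR, and 1 was higher and 3 lower in 4T1 than in 67NR. Members called numbered 0 in each comparison, beside 0.547% and 0.289% of genes called higher and lower with 4T1, 0.835% and 0.148% with 67NR, and 0.00781% and 0.0234% for 4T1 over 67NR. At an unadjusted p under 0.05, 7 members were lower and 0 higher with 4T1 (6.14% and 7.41% of genes), 4 lower and 9 higher with 67NR (5.02% and 7.81%), and 6 lower and 0 higher for 4T1 over 67NR (3.42% and 1.88%), and DESeq2 called 0, 1 (Ier5 with 67NR) and 0. With 4T1 Egr1 was at -0.48 (SE 0.12, adjusted p = 0.147 by edgeR), Egr2 at -0.60, Btg1 at -0.56, Fos at -0.45 and Jun at -0.42, with Atf3 at -0.38 (adjusted p = 0.319). With 67NR Fos was -0.47 (adjusted p = 0.167), while Fosl1 was 1.05 (SE 0.22, adjusted p = 0.07) and Ier5 was 0.67 (SE 0.13, adjusted p = 0.063). Junb, Dusp1 and Nr4a1 were -0.27, 0.09 and 0.07 with 4T1. The member medians were -0.07, 0.05 and -0.17 in the 3 comparisons. Without the filter on low counts, 5, 5 and 1 members passed. With 4T1 all 5 were lower (Jun, Egr2, Btg1, Fos and Egr1), with 67NR 4 were higher (Btg2, Ier5, Csrnp1 and Fosl1) and 1 lower (Fos), and for 4T1 over 67NR Nr4a2 was lower.

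Between the tumour lines the size of the difference depended on the class. The member medians of 4T1 over 67NR were -0.22 in endothelial cells (26 of 29 below 0) and -0.22 in the fibroblasts of the mixed library (28 of 32), which is farther from 0 than the medians of either line over naive there, -0.11 in stromal fibroblasts, -0.14 in migratory dendritic cells, 0.07 in monocytes, and -0.07 to -0.01 in the T cell classes. In neutrophils it was 0.21, close to the median of all genes (0.23), and became -0.21 with TMM scaling. Within the endothelial clusters that could be compared the member medians were -0.06 (15 of 25 below 0) and -0.04 (10 of 18). The endothelial difference was thus mostly not seen within these clusters. A stromal cluster that shared the leading genes Ccdc85a and Cdh13 with the second of them stayed unnamed. Its member median was -0.49 (12 of 16 below 0, all genes 0.02, 41 4T1 and 36 67NR cells). Within the fibroblast clusters of the mixed library the medians were -0.29, -0.21 and -0.17. The largest ratios in the 9 classes were those of Zfp36l1 in neutrophils (3.45, interval 3.17 to 3.75), Nr4a2 in stromal fibroblasts (-3.16) and Jun in neutrophils (2.34, interval 1.88 to 2.81), followed by Rhob in monocytes (1.19, interval 0.87 to 1.52). Within the Saa3 neutrophil cluster (214 4T1 and 36 67NR cells) Zfp36l1 stood at 366 CPM in 4T1 and 119.6 in 67NR. Jun stood at 84.95 and 43.5 CPM there, so both were closer than in the whole class. In the T cell library the largest ratio was that of Egr3 in CD4 T cells (-1.16, interval -1.62 to -0.70). Among members measured in all 3 T cell classes, the ratio farthest from the gene's own median over these classes was that of Klf4 in CD4 T cells, at -0.57 against a median of 0.18 (20.2 CPM in 4T1 and 29.9 in 67NR).

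Per cell, the summed UMIs of the 33 genes were compared after each cell was thinned to 1000 UMIs, which removes the difference in depth. At most 7 cells per class and condition were too shallow to be thinned. Naive cells had the highest median in 7 of 9 classes. In stromal fibroblasts the medians were 26 in naive, 21 in 4T1, 19 in 67NR and 18 in LPS, and in neutrophils 21, 15 and 13 in naive, 4T1 and 67NR. Endothelial cells had 10.5 in naive, 6 in 4T1, 7.5 in 67NR and 6.5 in LPS. Monocytes had 9, 7 and 7, CD8 T cells 6, 4 and 5, and CD4 T cells 7 in each condition. The ranges within a condition were far wider than the shifts, with the middle 50% of naive stromal fibroblasts between 13 and 40.

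**Figure D5:**
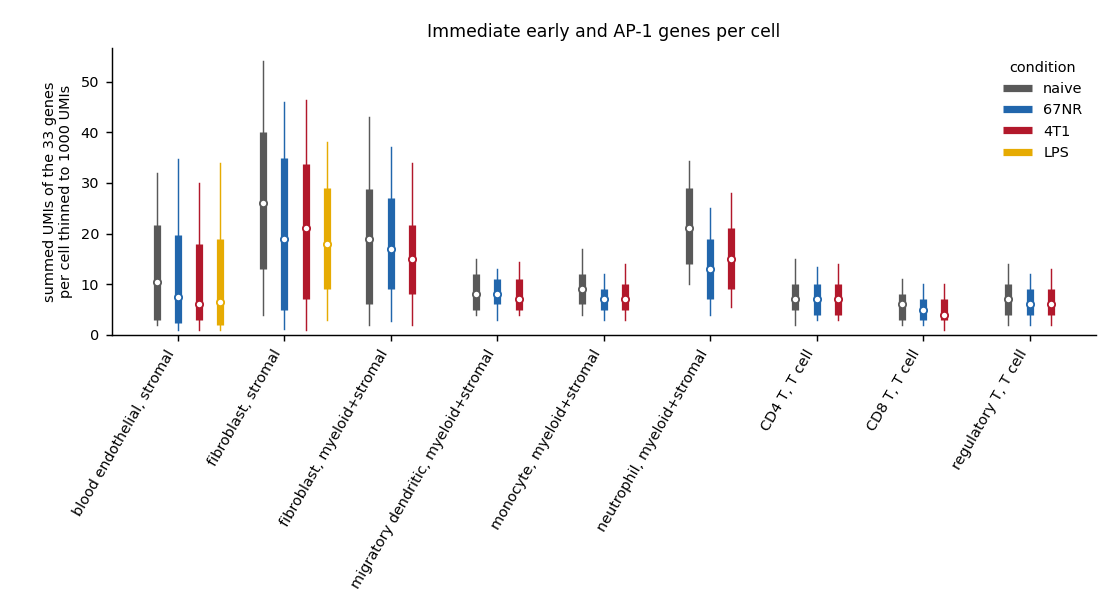
Summed UMIs of the 33 genes per cell after thinning to 1000 UMIs, by class and condition: the white point is the median cell, the thick bar the middle 50% of cells and the thin line the 10th to 90th percentile. Stromal fibroblasts have a median of 26 in naive and 18 to 21 in the other conditions, and CD4 T cells a median of 7 in all 3.

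The same class in naive nodes of different libraries gives the spread of these genes with no tumour in the comparison. Preparation, sort, depth and batch differ together between the libraries and cannot be told apart. Regulatory T cells of the T cell library lay below those of the axillary atlas for 27 of 29 members, with a median of -0.65, while all genes had a median of -0.08. The corresponding median was -0.23 in CD4 T cells (all genes -0.07), with Jun at 11.7 CPM against 39.0, and it was -0.38 in migratory dendritic cells (all genes -0.26) and -0.15 in NK cells. Other classes lay near 0 or above it: -0.09 in monocytes (all genes -0.02), 0.13 in gamma-delta T cells (all genes -0.15) and, for the axillary over the mediastinal atlas, 0.16 in B cells (all genes -0.08). The largest shift was that of macrophages of the mixed library over the axillary atlas, with 27 of 28 members higher and a median of 1.61, where all genes had a median of 0.88 and the sums held 44 and 50 cells. Fibroblasts of the stromal over the mixed library had a median of 0.04, with 12 of 31 members at least 1.5-fold apart, against 19.6% of genes. Fos was 5944 against 2746 CPM and Atf3 1962 against 952 CPM there, so in these genes the naive fibroblasts of the 2 libraries differed by more than naive and tumour-group fibroblasts of either library. The members at least 1.5-fold apart numbered 16 of 29 in regulatory T cells (19.9% of genes), 4 of 30 in CD4 T cells (6.41%), 12 of 28 in migratory dendritic cells (44.7%) and 7 of 29 in NK cells (18.5%). Between the whole axillary and mediastinal atlases the member median was 0.12 (all genes 0.07), with 13 of 33 at least 1.5-fold apart (29.6% of genes).

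Related genes outside the 33 were read from 5 lists, in the same fits. In the class-averaged fit 0 genes of any list were called in either tumour comparison. Heat shock genes, which are also induced by stress and dissociation, were below naive for 13 of 15 with 4T1 (median -0.27) and 14 of 15 with 67NR (-0.18), with Hsp90aa1 at -0.41 (adjusted p = 0.386 by limma), Dnajb4 at -0.41 and Hsph1 at -0.36 with 4T1. By class they did not follow the members everywhere: in migratory dendritic cells the heat shock medians were 0.36 with 4T1 and 0.37 with 67NR, against -0.67 and -0.55 in endothelial cells. Other immediate early genes were below naive for 23 of 26 with 4T1 (-0.19) and 20 of 26 with 67NR (-0.12), with Tob1 at -0.44, Irf1 at -0.35 and Plk3 at -0.34 with 4T1. AP-1 partners were below naive for 10 of 13 in both (-0.06 and -0.13), with Atf4, a translation-stress factor, at -0.41 with 4T1 (adjusted p = 0.217). Genes of ERK, SRF and CREB signalling, which act upstream, were below naive for 12 and 15 of 22 (-0.00 and -0.03), and other ERK feedback inhibitors for 6 and 6 of 10 (-0.02 and -0.02), both near the median of all genes. In the fibroblast test 1 heat shock gene fell with 4T1, Hsph1 (-1.0, SE 0.15, adjusted p = 0.029 by edgeR), and 1 other immediate early gene rose with 67NR, Ier3 (0.98, SE 0.16, adjusted p = 0.0333).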

How the data were processed

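The authors deposited raw UMI counts per gene or antibody and barcode for 5 gene libraries and their antibody libraries, with no scaling. Per the submitters' processing notes the software was Cell Ranger 7.0 and the genome mm10. Filters applied before deposit are not known here. Intervals and floors cover counting error only.

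Cells needed at least 500 UMIs, 250 genes and at most 10% mitochondrial UMIs. A hashtag was called at 10 or more counts and at least 3 times the next, and droplets with a second hashtag (183, 1110 and 541) were removed. Scrublet marked 877 cells of the axillary atlas, which were removed, and 0 of the mediastinal atlas. It thus failed on the latter, whose doublets stayed in, as did those within a condition. Each library was clustered alone with scanpy 1.11.5 (2000 variable genes without the 33 members and the lists, 30 components, 15 neighbours, Leiden resolution 1, leidenalg 0.10.2) and clusters were named from markers. A stromal cluster led by Smpd3 and Mrgprg stayed unnamed, while a comparable one of the other library was named fibroblast.

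Raw counts were summed per library, class and condition (30 cells or more). Fibroblast sums were tested with edgeR 4.0.16 (quasi-likelihood, TMM, filterByExpr, library as block; biological coefficient of variation 0.133, 2 residual degrees of freedom). Class averages of log2(CPM + 10) over genes with a CPM of at least 10 were tested with limma 3.58.1 (R 4.3.3; 4 residual degrees of freedom, library as block). The pseudocount understates changes of low genes. Pooling of conditions before sequencing, per the labels, is why the library was a block. Benjamini-Hochberg adjusted p under 0.05 over all genes counted as called. Other classes are log2 ratios of CPM with exact conditional binomial 95% intervals from scipy 1.17.1. DESeq2 1.42.0 was the other tool. On simulated counts of the fibroblast 4T1 comparison (12859 genes) the share of changed genes found by edgeR was 42.1% at a log2 change of 1 and 93.2% at 2 (8 calls were false). On simulated class averages of 4T1 (9203 genes) limma found 85% and 94% (1 call was false).

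Full values are given for members called, for Fos, Jun, Junb, Egr1, Dusp1 and Nr4a1, and for the largest departure of a class in each library and comparison, and from each related list for the 3 genes with the largest change in a fit. Other members named were chosen after their values were seen. The members and lists were chosen with earlier results of these data known. The promoter table held 27 of the 33 members.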

Additional observations from a re-analysis of the deposited data

Results flagged for a closer look

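Jun in migratory dendritic cells was higher with 67NR than in naive (log2 ratio 1.29), whereas the other 3 classes of the mixed library of myeloid and stromal cells in which it was measured lay between -1.62 and -0.50. Klf4 in the same cells was also higher with 67NR (0.82), and the other 2 classes measured lay between -0.42 and -0.11. Both were noted because a class moved against all others of its pool by at least 1.5-fold, and the difference between classes was not tested, as each class has 1 sum per condition. Of any size, 23 such cases occurred among the members.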

How the results depend on the processing

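Of 63 alternatives for the counts of members called, 37 gave the same count, and of 69 for the medians in the fits 57 moved little. Among 116 for the medians per class 104 moved little and 9 changed sign. Atf3 was the 1 member called by limma in each tumour comparison. It stayed called with a pseudocount of 1 CPM or with centring (adjusted p = 0.00879 and 0.0303 with 4T1, 0.00655 and 0.0374 with 67NR). The count became 0 in both with a pseudocount of 50 CPM, no filter, all Leiden clusters, at least 100 cells, thinned cells, no fibroblasts or no library block, and 0 to 0 on leaving out each library. The cause was not tested. The class-averaged 4T1 median was -0.18 with a pseudocount of 50 CPM, -0.051 with all clusters and -0.27 to -0.17 on leaving out a library. That of 67NR was -0.068 with all clusters and -0.19 to -0.07 on leaving out a library, and that of 4T1 over 67NR was -0.0053 with all clusters.

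Without the library as a replicate block, edgeR called 0 genes in all 3 fibroblast comparisons, and the 4T1 median was -0.13. Without the gene filter 5, 5 and 1 members were called, and 408 genes rose and 376 fell with 4T1, 569 and 265 with 67NR, and 55 and 126 for 4T1 over 67NR. For 67NR 1 member was called at Leiden resolution 2 (Fosl1, 170 and 77 genes), with a wider fibroblast class (Fosl1, 182 and 93 genes) and by DESeq2 (Ier5). Other counts of genes moved too: for 4T1, 38 and 18 with at least 1000 UMIs and 14 and 10 with a hashtag ratio of 10, and for 4T1 over 67NR, 1 and 1 by DESeq2 and 2 and 4 at resolution 2. The fibroblast medians were -0.011 (4T1) and 0.13 (67NR) with a hashtag ratio of 10, -0.14 and -0.033 with the wider class, and -0.16 to -0.12 and -0.025 to 0.13 on leaving out a library, which leaves no degrees of freedom for a test.

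Per class, a hashtag ratio of 10, which also redrew the clusters, gave 0.19 (4T1), 0.26 (67NR) and 0.039 (LPS) in stromal fibroblasts, -0.30 (4T1) in the other fibroblasts and -0.60 (67NR) in monocytes. Thinning gave -0.26 (67NR) and -0.48 (LPS) in stromal fibroblasts, 0.19 (67NR) in migratory dendritic cells and -0.43 (4T1) in neutrophils. In neutrophils at most 5% mitochondrial UMIs gave -0.84 (4T1), and TMM scaling gave -0.47 (67NR) and -0.21 (4T1 over 67NR). The wider class, the runs without fibroblasts and the thinned averages were added after the data were seen. The main limits are the single sum per condition and library, naive cells that were the shallowest of each pool, and class names rebuilt from markers.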
